A study of Mesocricetus auratus with 10 samples.

Results

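The 80 genes described here encode proteins of the cytosolic ribosome in the liver of the golden hamster (Mesocricetus auratus). They were chosen by symbol alone, as every gene of the array named RPL, RPS or RPLP with a number and at most a letter and a further digit, a pattern that leaves out the RPS6 kinases. The set holds 49 genes of the large subunit and 31 of the small subunit, out of 14434 named genes on the array, of which 13827 were tested. All 80 passed the filter on dim probes and were well above background in both RNAs on all 20 arrays. They had 339 probes of 60 bases, a median of 4 per gene, and the brightest probe stood for its gene. Of the 80 symbols, 76 match a RefSeq symbol of the assembly BCM_Maur_2.0.

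Livers of 10 males on a high fat diet (HFD) were measured, each set against a pool of liver RNA from 10 males on a standard diet (STD). Both dye orientations were hybridised for every HFD animal, so that an animal's value is the mean of an array with HFD in Cy5 and an array with HFD in Cy3. The sources do not state age, strain, diet composition or time on the diet. The pool was 1 RNA without replicates, so the tests ask whether the HFD animals lie to 1 side of that pool, and anything peculiar to it enters all ratios. Values are log2 ratios, HFD liver over STD pool, below 0 where HFD liver was lower, with SD over the 10 animals. Two-sided p-values come from limma and were adjusted by Benjamini-Hochberg across the 13827 genes, and a gene was called at an adjusted p under 0.05.

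Ribosomal proteins are built into the small and the large ribosomal subunit around ribosomal RNA, and a cell needs nearly all of them in equal number. Their mRNAs are among the most abundant in most tissues, liver included, and begin with a terminal oligopyrimidine (TOP) motif through which the mTOR pathway controls their translation. Several also act away from the ribosome, such as RPL5 and RPL11, which bind MDM2 and thereby raise p53.

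Ribosomal protein genes were mostly lower in HFD liver, by small amounts. Of the 80 genes, 2 were higher, 59 lower and 19 not called, where 31.4% of all genes tested were called higher and 28.9% lower (60.3% together). The lower calls make up 73.8% of the set. Its median log2 ratio was -0.18, against 0.01 over all genes tested. Of the 80 genes, 45 were below 0 in 10 of 10 animals and none was above 0 in 10 of 10. No gene of the set changed as much as 2-fold, and the means ran between -0.95 (RPS26) and 0.12 (RPLP1). The large subunit had 36 lower genes and 1 higher of 49, and the small subunit 23 lower and 1 higher of 31, with medians of -0.17 and -0.18. Counted over probes instead of genes, 339 probes were tested. Of these, 283 (83.5%) were lower and 5 higher, where 28.2% of all kept named probes were lower and 31% higher. The probes include dimmer opposite-strand partners in 21 genes, and all 21 of those compared were called lower (described below). The share of probes is therefore not a repeat of the share of genes. In 54 genes every probe was lower, and of the 58 called genes with further probes 2 had a probe called the opposite way.

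**Figure D1:**
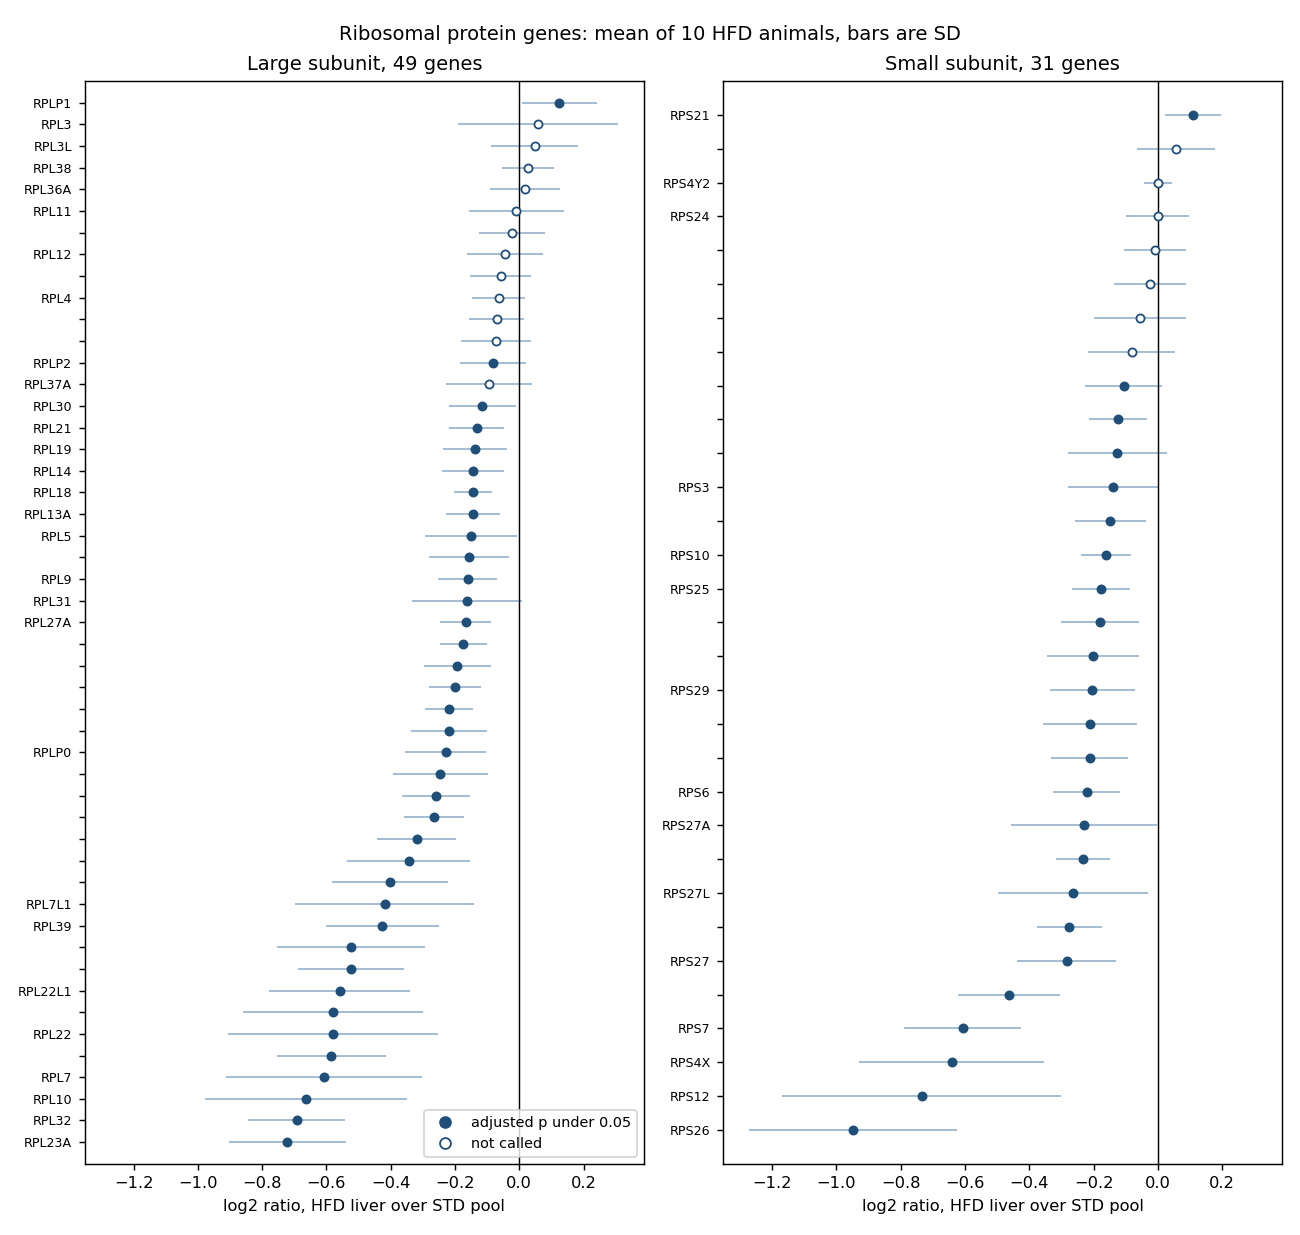
Mean log2 ratio (HFD liver over STD pool) for each of the 80 genes, large subunit left and small subunit right, with bars for the SD over 10 animals. Filled points are genes with a limma adjusted p under 0.05, and most of them lie left of 0, with RPLP1 and RPS21 to the right of it. Gene names are given for the genes described in the text.

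Hepatocyte markers fell in the same livers, and in bulk liver RNA fewer cells of a type and less RNA per cell cannot be told apart. Of 18 measured hepatocyte markers 15 were lower and 1 was higher, with a median of -0.40 and animal means over the markers between -0.70 and -0.36. ALB, which encodes albumin, was well above background in both RNAs on all 20 arrays. Macrophage markers had 6 of 11 genes higher and 3 lower (median 0.09), endothelial markers 4 of 10 higher and 2 lower (median 0.02), and stellate cell and fibroblast markers 2 of 10 higher and 3 lower (median -0.06). Markers of T, B and NK cells had 1 of 14 higher and 7 lower (median -0.08), and 3 of 6 erythroid markers were lower (median -0.05). Over all genes 31.4% were higher and 28.9% lower, and the endothelial and stellate cell counts lie near these shares. The part of these cell types in the ribosomal protein ratios was not tested.

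The lowest ratios belonged to genes read by comparatively dim probes. Probe signal, the mean log2 intensity over both RNAs and 20 arrays, depends on the probe and is not a level of the mRNA. It split the set with a gap between RPL4 at 11.5 and RPL39 at 12.8, and a limit of 12, set after the values were seen, divides it there. Of the 58 genes at 12 or above, 41 were lower and 2 higher, with a median of -0.15 and a lowest mean of -0.43 (RPL39). The 41 lower genes ran between -0.43 and -0.08 (RPLP2), and the 15 not called between -0.09 (RPL37A) and 0.06 (RPL3). Of the 22 genes below 12, 18 were lower and 4 not called, with a median of -0.57. Among 2939 other genes at a signal of 9.8 to 12, 35.4% were lower and 35.3% higher, with a median of -0.01. That range leaves out the dimmest of the 22, which reached down to 7.2. All 14 genes of the set with a mean below -0.5 were among these 22. The 2 groups of the set were not compared by a test, since the limit was drawn on the data.

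**Figure D2:**
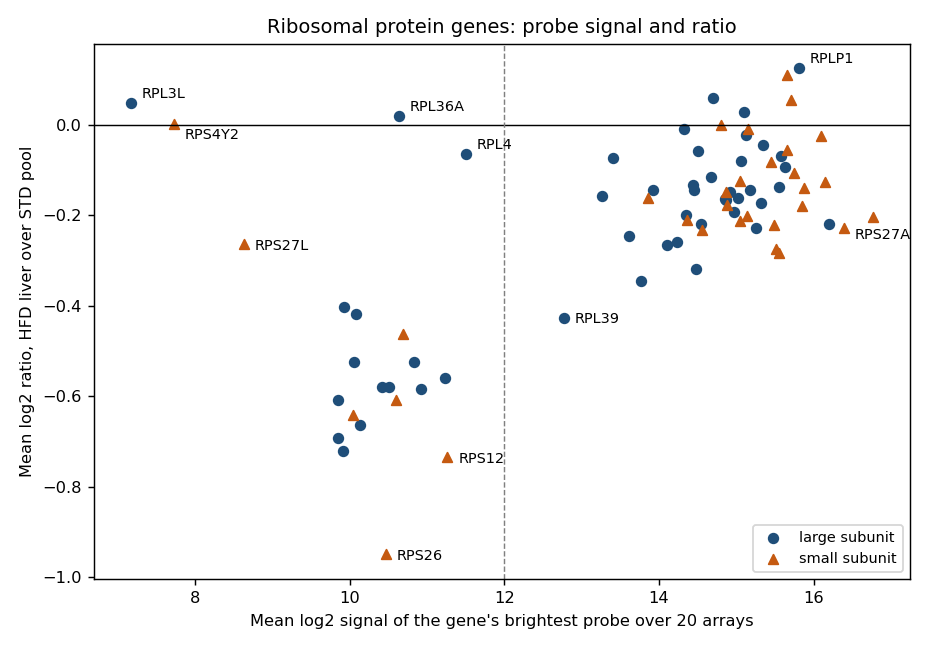
Mean log2 ratio of each ribosomal protein gene (vertical) against the mean log2 signal of its brightest probe (horizontal), circles for the large and triangles for the small subunit. Genes right of the dashed limit at 12 lie between -0.43 and 0.12, and the genes with means below -0.5 lie left of it.

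Bright probes of other genes were not shifted in this way. At a signal of 14 or above, 35 of 51 ribosomal protein genes were lower (68.6%) and 2 higher, with a median of -0.14. Among the 356 other genes at that signal, 31.5% were lower, with a median of -0.01. The ribosomal protein genes made up 12.5% of all tested genes in that range. With each array centred on its median in place of loess, those other bright genes had a median of -0.06 and the 58 ribosomal protein genes at 12 or above one of -0.19, with 45 lower.

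RPS26, a protein at the mRNA exit channel of the small subunit, had the lowest mean of the set. Its 10 log2 ratios ran from -1.33 over a median of -1.08 to -0.48, so that every animal lay below the pool (-0.95 ± 0.32, SD, n = 10; limma adjusted p = 1.26e-06), a 1.93-fold lower value. The mean normalised log2 signal of its probe was 9.99 in HFD liver and 10.9 in the pool. Which strand that probe reports is not given, and opposite-strand probes of other genes of the set differed in ratio (below). RPS12, another small subunit protein, ran from -1.20 over -0.97 to -0.07 (-0.74 ± 0.43, adjusted p = 1.22e-04 by limma). Its animals fell into 2 ranges, with animals 1 to 4 between -0.35 and -0.07 and animals 5 to 10 between -1.20 and -0.96.

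That division lay in 6 arrays. On the arrays with HFD in Cy3 of animals 5 to 10, RPS12 was between -2.30 and -1.56, and on the other 14 arrays between -0.54 and 0.08. RPS26 was between -2.18 and -1.56 on those 6 arrays and between -1.13 and -0.24 on the other 14. Of those 6, the arrays of animals 5, 6, 7, 9 and 10 had HFD RNA well above background at 77.2% to 84.0% of probes. On that of animal 8 the share was 88.6%, and on the other 14 arrays it was 87.1% to 97.7%. A link of this share to the ratios was not tested. An earlier analysis of the same data had singled out these 6 arrays, and leaving them out was chosen with that known. A fit to the other 14 arrays, each array entering by itself with its dye orientation as a covariate and its animal as random effect, placed RPS26 at -0.56 and RPS12 at -0.24, both still called lower. The median of the 22 genes with dim probes was -0.28 on the 14 arrays, against -0.57 on all 20, and that of the 58 genes with bright probes was -0.14. On the 14 arrays 18 of the 22 and 39 of the 58 genes were lower. Of the 22, 17 were lower in both fits, while RPS27L lost its call without the 6 arrays and RPL4 gained one (-0.14, limma adjusted p = 0.00538). Of the 58, 36 were lower in both fits, 5 lost the call and 3 gained it.

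The next lowest genes of the set behaved alike. RPL23A, which lies at the exit of the peptide tunnel, ran from -0.89 over -0.81 to -0.44 (-0.72 ± 0.18), and RPL32 from -0.91 over -0.73 to -0.47 (-0.69 ± 0.15, limma adjusted p = 4.99e-08). Both were below the pool in every animal, and on the 14 arrays their means were -0.50 and -0.52. RPL10 (-0.66 ± 0.31), which joins the large subunit late in its assembly, RPS4X (-0.64 ± 0.29), RPL7 (-0.61 ± 0.31) and RPS7 (-0.61 ± 0.18) were also below 0 in 10 of 10 animals. On the 14 arrays their means were -0.40, -0.32, -0.27 and -0.41. Each probe of these 8 genes was called lower, and the strand that these probes report is not given.

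Among the 58 genes with bright probes 29 were below 0 in 10 of 10 animals. Of the called genes with the same sign in 10 of 10 animals, the 8 with ratios nearest to 0 were RPL21, RPL19, RPL14, RPL18, RPL13A, RPL9, RPS10 and RPL27A, between -0.13 and -0.17. They were selected for that sign, and in 5 of them (RPL21, RPL14, RPL13A, RPL9 and RPL27A) animal 8 lay apart below the others by Dixon's test. RPL18 ran from -0.26 over -0.13 to -0.06, all below 0 (-0.14 ± 0.06, limma adjusted p = 2.01e-04). RPL39, named after its value was seen, had the lowest mean of the genes with bright probes. It is one of the smallest proteins of the large subunit, read by a single probe, and ran from -0.63 over -0.50 to -0.09 (-0.43 ± 0.18).

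The stalk of the large subunit, which recruits the translation factors, is built from RPLP0, RPLP1 and RPLP2, and these did not move together. RPLP0, the base of the stalk, ran from -0.49 over -0.22 to -0.02 (-0.23 ± 0.13, limma adjusted p = 1.74e-04), below the pool in every animal. RPLP1 ran from -0.12 over 0.13 to 0.29 (0.12 ± 0.12, adjusted p = 0.00847 by limma), and 9 of 10 animals were above the pool. RPLP2 ran from -0.23 over -0.12 to 0.12 (-0.08 ± 0.10, limma adjusted p = 0.046), with 8 animals below 0. Its call was lost in 7 of the 10 fits that left out an animal and in 8 of 18 other settings, the authors' deposited log2 ratios among them (limma adjusted p = 0.0977). All 9 probes of RPLP0 were called lower, whereas 3 of the 6 probes of RPLP1 were higher and 3 lower. The 3 higher probes had signals of 15.6 to 15.8 and the 3 lower ones 8.9 to 10.3. Of the lower probes, those at 10.3 and 9.5 overlap higher ones on the opposite strand (below). With the mean of all its probes, which mixes these strands, RPLP1 was at -0.06 and no longer called, so its direction depends on the probe. Its call was also lost with median centring (0.07), with HFD in Cy5 alone (0.00), in animals 1 to 4 alone (0.12) and within scan session 3 (0.13). The other gene of the set called higher was RPS21 of the small subunit (0.11 ± 0.09, adjusted p = 0.0055 by limma), with ratios from -0.02 over 0.07 to 0.27 and a single probe. It was no longer called with median centring (0.06), with HFD in Cy5 alone (0.02) or in animals 5 to 10 alone (0.06).

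RPL5 and RPL11 join 5S ribosomal RNA in a particle that can bind MDM2. RPL5 ran from -0.45 over -0.13 to 0.07 and was called lower (-0.15 ± 0.14, limma adjusted p = 0.00744), with 9 of 10 animals below 0. On the 14 arrays its call was lost at -0.09 (limma adjusted p = 0.0684). RPL11 ran from -0.24 over -0.02 to 0.25 and was not called (-0.01 ± 0.15). It was called lower on the 14 arrays (-0.15, limma adjusted p = 0.00137) and with the mean of all its probes (-0.10, limma adjusted p = 0.0375), and its 2 dimmer probes were each called lower (-0.17 and -0.12). Its mean hides opposite orientations: on arrays with HFD in Cy5 all 10 ratios were below 0, between -0.50 and -0.14, and on arrays with HFD in Cy3 they lay between -0.05 and 0.82. RPS6, the S6 kinase substrate of the small subunit, ran from -0.45 over -0.21 to -0.03, below the pool in every animal (-0.22 ± 0.10, limma adjusted p = 7.84e-05), and its 7 probes were all lower.

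Paralogs that are restricted to some tissues or take part in regulation varied. RPL22L1, a paralog of RPL22, was lower (-0.56 ± 0.22), as was RPL22 itself (-0.58 ± 0.33). On the 14 arrays the paralog was at -0.43 and RPL22 at -0.19. RPL7L1, a protein of ribosome assembly, was lower (-0.42 ± 0.28), with 9 of 10 animals below 0. RPL3L, the striated muscle form of RPL3, was not called (0.05 ± 0.14), and neither was RPL3 (0.06 ± 0.25). The dimmest probes of RPL3 were called lower, at -0.23, -0.45 and -0.33, and its other probes were not called. RPS4Y2, which bears the name of a human Y-linked gene, was not called (0.00 ± 0.04). The probes of RPL3L and RPS4Y2 had signals of 7.2 and 7.7, below the median of 8.8 over all genes tested. RPL3L, RPS4Y2, RPL36A (0.02 ± 0.11) and RPL4 (-0.06 ± 0.08) were the 4 genes with dim probes that were not called. Of their further probes, 2 for RPL36A and 5 for RPL4 were lower. RPS27L, a p53 target paralogous to RPS27, was called lower (-0.26 ± 0.23) but stood at 0.01 on the 14 arrays. Ribosomal protein genes have many processed pseudogenes in mammals, and a probe cannot be assigned to a parent gene or a copy from these files.

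Ribosomal proteins whose symbols fall outside the name pattern were lower in 4 of 5 cases and higher in 1. FAU, whose product is cut into a ubiquitin-like protein and RPS30, was at -0.53 ± 0.20, RPL36AL at -0.57 ± 0.15, RPSA, the laminin receptor protein of the small subunit, at -0.30 ± 0.25 (not called on the 14 arrays, at -0.05), and GNB2L1, the scaffold RACK1, at -0.18 ± 0.09. RPS27A, a member of the set that is made as a fusion with ubiquitin, ran from -0.54 over -0.33 to 0.13 and was called lower (-0.23 ± 0.23, limma adjusted p = 0.0064), with 8 of 10 animals below 0. Its dye orientations had opposite signs.

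Dye orientation differences were common among ribosomal protein genes, and among other genes with bright probes too. The difference between an animal's ratio with HFD in Cy5 and that with HFD in Cy3 was called for 57 of the 80 genes (71.3%), where 48.8% of all genes were called, 25.8% higher in Cy5 and 23% lower. At a probe signal of 14 or above the shares were 74.5% of the ribosomal protein genes and 65.2% of the other genes, and at 12 or above 74.1% and 60.1%. Of the 57, 43 were higher with HFD in Cy5 and 14 lower. The set's median ratio was -0.13 on arrays with HFD in Cy5 and -0.25 on arrays with HFD in Cy3, against 0.02 and 0.00 over all genes. Both orientation means were below 0 in 53 genes, and 23 genes had opposite signs. The counts depend on the normalisation. The software's processed signals gave 28 higher, and median centring gave 76 higher and 1 lower.

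RPS27A had the largest orientation difference of the set. Its ratios ran from 0.21 to 0.66 on arrays with HFD in Cy5, all above 0, and from -1.29 to -0.40 on arrays with HFD in Cy3, all below 0 (means 0.43 and -0.88, difference 1.31 ± 0.30; limma adjusted p = 4.82e-07). On the 14 arrays it was at -0.05 and not called, so no direction can be given. RPS29 also changed sign, with a mean of 0.23 with HFD in Cy5 and -0.64 with HFD in Cy3 (difference 0.87 ± 0.11). RPS12 (-0.30 and -1.17) and RPL22 (-0.17 and -0.99) kept their sign, and RPL22 was between -1.87 and -1.27 on the 6 arrays named above and between -0.46 and -0.04 on the other 14. RPL12, which like RPL31 was named after its values were seen, was at 0.32 with HFD in Cy5 and -0.41 with HFD in Cy3, and RPL31 at 0.23 and -0.56.

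**Figure D3:**
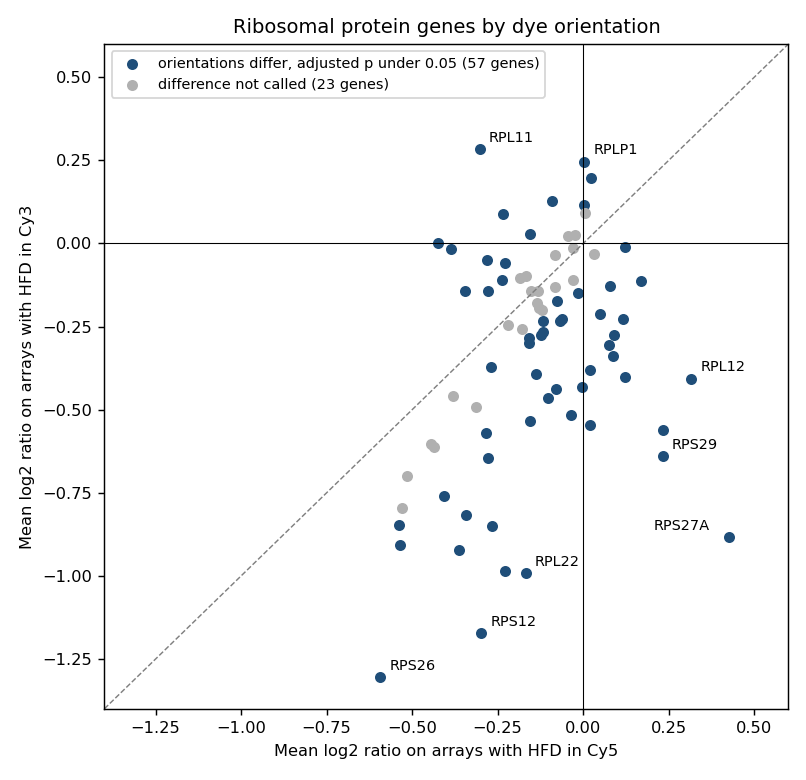
Mean log2 ratio of each ribosomal protein gene on the 10 arrays with HFD in Cy5 (horizontal) and on the 10 arrays with HFD in Cy3 (vertical), blue where the difference was called by limma. Points below the dashed diagonal, 43 of them called, were higher with HFD in Cy5, and RPS27A, RPS29 and RPL12 lie right of 0 and below 0.

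The subunits differed by very little, and in opposite ways in the 2 orientations. The mean over the large subunit genes minus that over the small subunit genes was -0.02 ± 0.02, below 0 in 8 of 10 animals (exact two-sided sign-flip permutation test, p = 0.0391, adjusted over the 3 comparisons 0.0391). It was -0.07 ± 0.02 with HFD in Cy5, below 0 in 10 of 10 animals (exact permutation p = 0.00195, the smallest that 10 animals allow, adjusted 0.00586). With HFD in Cy3 it was 0.03 ± 0.04 (exact permutation p = 0.0156, adjusted 0.0234). No direction holds in both. The difference over both orientations missed a p of 0.05 in 7 of the 10 fits that left out an animal (exact permutation p between 0.0664 and 0.0781 in those).

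The 10 HFD animals differed in how far the whole set was lowered. Every animal's median over the 80 genes was below 0, between -0.39 in animal 8 and -0.04 in animal 2, where the medians over all genes lay between -0.01 and 0.02. In animal 8, 78 of 80 genes were below the pool, and in animal 2, 51. Animal 8 was lowest and animal 2 highest in both orientations, with medians of -0.29 and -0.01 with HFD in Cy5 and of -0.50 and -0.07 with HFD in Cy3. Without animal 8 the set had 57 lower and 4 higher genes and a median of -0.15. In animals 1 to 4 alone 34 genes were called lower, at a median of -0.12, and in animals 5 to 10 alone 61, at -0.21. Within the scan sessions that held both orientations, 51 and 53 genes were lower at medians of -0.18 and -0.18. The genes with bright and with dim probes ranked the animals differently. Among dim-probe genes the medians were between -0.43 and -0.16 in animals 1 to 4 and between -0.80 and -0.58 in animals 5 to 10, while animal 8 was the lowest, at -0.37, among genes with bright probes.

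**Figure D4:**
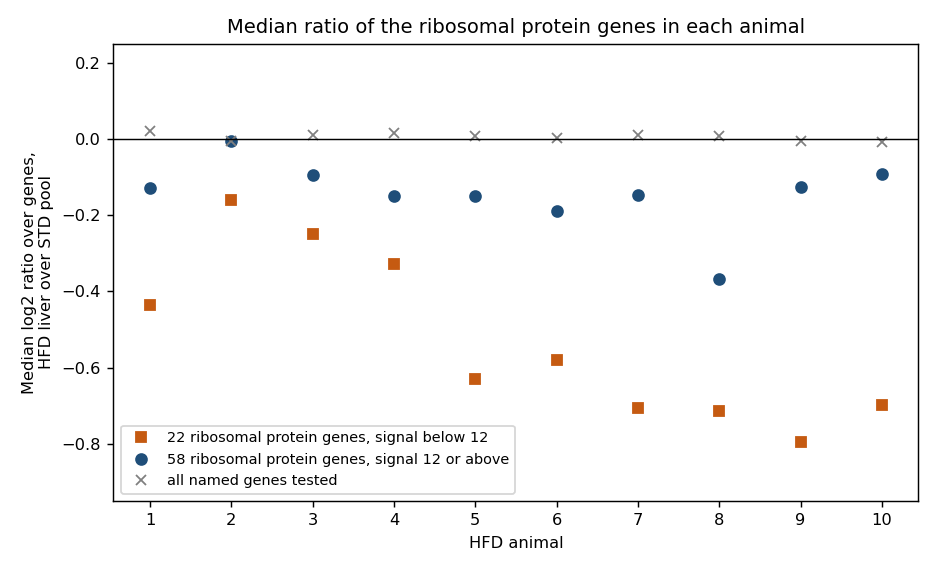
Median log2 ratio over the 22 ribosomal protein genes with a probe signal below 12 (squares), the 58 genes at 12 or above (circles) and all named genes tested (crosses) in each of the 10 HFD animals. Circles stand below 0 in every animal, lowest in animal 8, and squares lie lower still.

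Some ribosomal protein genes were measured by probes of opposite strands, and these did not give the same ratio. In 21 genes a probe overlapped another probe of the same gene as its reverse complement, over 16 to 56 bases, and for each gene the brightest such probe and its brightest partner were compared. RPL31, RPS24 and RPL5 are shown because their overlaps are long. Sequences are given 5′ to 3′ as printed on the array, with the shared, reverse-complementary stretch in capitals.
RPL31 dimmer probe: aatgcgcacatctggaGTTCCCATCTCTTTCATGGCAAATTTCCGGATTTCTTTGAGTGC
RPL31 brighter probe: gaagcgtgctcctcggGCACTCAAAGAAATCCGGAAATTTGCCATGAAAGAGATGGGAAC
RPS24 dimmer probe: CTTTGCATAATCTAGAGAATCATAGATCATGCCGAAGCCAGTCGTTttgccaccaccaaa
RPS24 brighter probe: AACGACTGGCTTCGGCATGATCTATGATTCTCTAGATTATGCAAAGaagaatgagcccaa
RPL5 dimmer probe: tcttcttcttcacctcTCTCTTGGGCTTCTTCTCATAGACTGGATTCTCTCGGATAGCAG
RPL5 brighter probe: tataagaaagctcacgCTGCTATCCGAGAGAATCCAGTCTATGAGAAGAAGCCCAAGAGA

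The dimmer probe of the pair compared had the lower ratio in all 21 genes. Over all 34 such pairs it did in 32, and in the other two, both of RPLP0, the dimmer probes were at -0.21 and -0.23 and the brighter one at -0.45. Its median was -0.53, against -0.12 for the brighter probe, and the median difference was -0.38, between -0.62 and -0.13. All 21 dimmer probes were called lower, and 13 of the 21 brighter ones. The dimmer probe was the lower of the pair in 10 of 10 animals in 18 genes. For RPS24, which was not called by its brightest probe, the dimmer probe was at -0.61 and the brighter at -0.00. RPL31 had -0.74 and -0.12, and RPL5 -0.58 and -0.15. RPLP1 had -0.25 with its dimmer and 0.12 with its brighter probe. The difference was present in both orientations, with medians of -0.24 with HFD in Cy5 and -0.56 with HFD in Cy3, and in each animal, from -0.65 in animals 9 and 10 to -0.16 in animal 4.

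**Figure D5:**
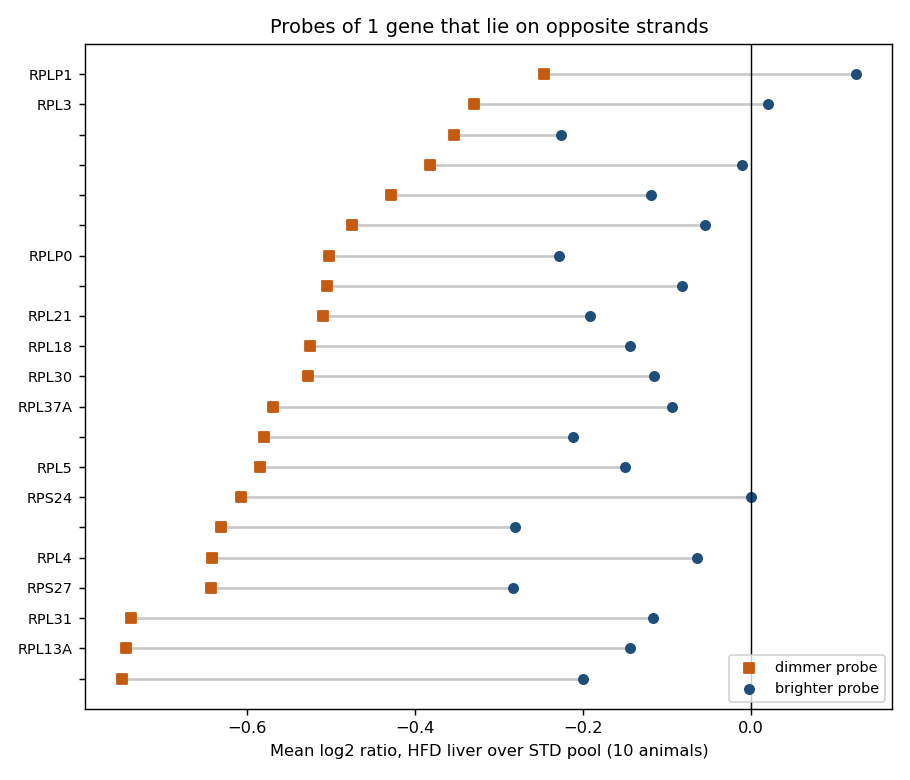
Mean log2 ratio over 10 HFD animals of the dimmer (square) and the brighter (circle) probe of a pair that overlaps as reverse complements, for the 21 ribosomal protein genes with such a pair. In each gene the square lies left of the circle, and names are given for genes described in the text.

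Opposite-strand pairs of other genes showed the same order less uniformly. Among 934 other genes with such a pair, 703 had the lower ratio in the dimmer probe, with a median difference of -0.17. In the 102 of these whose brighter probe lay in the signal range of the ribosomal protein pairs, medians were -0.29 for the dimmer and -0.03 for the brighter probe, the median difference was -0.33, and 83 had the lower ratio in the dimmer probe. With a brighter probe at 14 or above, 22 of 27 other genes were lower in the dimmer probe (median difference -0.41). All 17 ribosomal protein genes in that range were, with a median difference of -0.37. A lower ratio in the dimmer probe was thus also common among other genes. The medians of the dimmer probes here (-0.53) and of the 22 genes read by dim probes (-0.57) are close in value. The files do not state which strand the probes of those 22 genes report, and whether their lower ratios are of the same kind was not tested. The brightest probe of RPS26, the lowest of them, reads:
RPS26 brightest probe: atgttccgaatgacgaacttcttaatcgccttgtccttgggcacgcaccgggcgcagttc

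Other parts of the translation machinery were mixed, and their counts stand against 31.4% higher and 28.9% lower over all genes. Of 19 further genes listed for TOP mRNAs, not all of them translation genes, 3 were higher and 11 lower, with a median of -0.11. EEF1B2 (-0.64 ± 0.20), the exchange factor of elongation factor 1, TPT1 (-0.59 ± 0.24), and the initiation factor genes EIF4B (-0.53 ± 0.18) and EIF3L (-0.51 ± 0.31) were lower in 10 of 10 animals. Their probe signals were 9.9, 11.5, 12.4 and 8.9. With HFD in Cy5 their means were -0.44, -0.34, -0.14 and -0.39. With HFD in Cy3 they were -0.85, -0.83, -0.91 and -0.63. The higher genes, named after their values were seen, were HNRNPA1 (0.16 ± 0.14), EIF3E (0.15 ± 0.08) and EEF1A1 (0.12 ± 0.12). Of 40 ribosome biogenesis genes 8 were higher and 20 lower, with a median of -0.09. SBDS (-0.69 ± 0.39), which releases a factor that keeps the subunits apart, the nucleolar GTPase gene GNL3 (-0.43 ± 0.20), DKC1 (-0.23 ± 0.09), the pseudouridine synthase dyskerin, and RIOK1 (-0.19 ± 0.05), a kinase of small subunit maturation, fell. SBDS, at a probe signal of 10.2, had means of -0.39 with HFD in Cy5 and -0.99 with HFD in Cy3. The highest of the biogenesis genes, also named after its value was seen, was NOB1 (0.32 ± 0.15), the nuclease that trims the small subunit RNA, above 0 in 10 of 10 animals. These lists are described by their counts and were not tested as sets.

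Genes that make ribosomal RNA and that control ribosomal protein synthesis had calls in both directions. In the RNA polymerase I list 2 of 15 genes were higher and 6 lower (median -0.00). TAF1D (-0.83 ± 0.33), RRN3 (-0.34 ± 0.15), the initiation factor of RNA polymerase I, and its subunit gene POLR1B (-0.19 ± 0.08) fell, while TAF1B (0.18 ± 0.10) rose. In the list of control genes 8 of 25 were higher and 5 lower (median -0.03), where 31.4% of all genes were higher and 28.9% lower. MYC (-0.85 ± 0.62), the transcription factor that drives ribosome production, and RPS6KB1 (-0.25 ± 0.10), which encodes S6 kinase 1, fell in 10 of 10 animals. RPS6KB2, which encodes S6 kinase 2, rose in 10 of 10 animals (0.36 ± 0.05, limma adjusted p = 6.39e-08).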

How the data were processed

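Per the labels, liver RNA was labelled with Cy3 or Cy5. Dyes were assigned by array name, and the direction of all ratios rests on those names. The deposited scanner tables hold spot intensity in green and red with local background, made with Agilent Feature Extraction per the file headers. Processed intensity and flags for spots above background were deposited with them. The authors also deposited log2 ratios, made with limma per the submitters' processing notes. Their columns had medians between -0.0145 and 0.0185 and correlated with the ratios computed here at r between 0.920 and 0.973 across genes. Their direction is HFD over the pool, and their exact scale and centring stay unknown.

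Here limma 3.58.1 (R 4.3.3) was used for normexp background correction (offset 50) and loess within arrays, without control and outlier spots. Spots of a probe were averaged, ratios turned to HFD over pool and the arrays of an animal averaged. Probes were kept when well above background in either RNA on at least 10 of 20 arrays, and the brightest kept probe stood for its gene. HFD RNA was well above background at 77.2% to 97.7% of probes per array, and no spot was saturated. The number of arrays limits the precision. Each mean was tested against 0 with lmFit and eBayes, with the pool as a fixed reference, which leaves out the spread of the STD animals. The fit was tested on simulated data. Gene names follow the array's design, and 76.9% of the tested names occur in RefSeq.

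The genes, lists and limits were chosen with earlier results of these data known. Named genes are the 8 highest and 8 lowest called members with the same sign in 10 of 10 animals, the 4 members with the largest orientation difference, members of the role groups, and up to 4 genes of each further list. Others are marked as chosen after their values were seen, as were RPS24, RPL31, RPL39, RPL12, RPL36A, RPL4, RPL3, RPL37A and RPS21. Values of some single genes are not reported here. Alternatives changed the normalisation, background correction, probe filter, probe choice, arrays, animals, variance model and batch.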

Additional observations from a re-analysis of the deposited data

Results flagged for a closer look

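Animal 8 lay apart below the other 9 animals, by Dixon's test at the 95% level, in 9 of the 80 ribosomal protein genes, and no other animal did in any. Chance alone marks about 1 in 20 such groups, and the genes share the same 2 arrays, so the 9 are not independent. In 8 of these genes the log2 ratios of animal 8 were -0.37 for RPL30, -0.34 for RPL21, -0.46 for RPS3, -0.39 for RPL14, -0.37 for RPL13A, -0.37 for RPL9, -0.37 for RPL27A and -0.38 for RPS25. The nearest other animal was between -0.22 and -0.15 in these 8 genes. The median of animal 8 over all 80 genes (-0.39), over the large subunit (-0.37), over the small subunit (-0.41) and over the genes with a probe signal of 12 or above (-0.37) was apart in the same way. For the 80 genes the nearest other animal was at -0.22.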

How the results depend on the processing

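The lower count of the set lay between 34 and 70 and its median between -0.29 and -0.12 under every alternative. Those beyond 1.5 times the main count or 1 SD were 34 lower genes in animals 1 to 4 (18 of the 58 with bright probes) and a median of -0.29 with the mean of all probes. The count of higher genes was 0 with median centring, 1 with the mean of all probes, in animals 5 to 10 and within scan session 3, 4 with HFD in Cy3 alone and with the scan session as a block, and 8 with HFD in Cy5 alone. Over all genes, 2529 were lower on the 14 arrays, 2227 were higher and 1614 lower in animals 1 to 4, and 2735 and 2360 within scan session 3. Orientation calls higher in Cy5 were 28 with processed signals, 76 (1 lower) with median centring and 20 (4 lower) in animals 1 to 4, where 1807 genes were called. The mean of all probes gave 7 lower. The large minus small subunit difference lost its call with processed signals (-0.016), median centring (-0.00398), the authors' ratios (-0.022), in animals 1 to 4 (-0.032) and in animals 5 to 10 (-0.0097), and reversed with HFD in Cy3 alone (0.033). Leaving out each animal in turn gave -0.023 to -0.015 for it, with the call lost in 7 of 10 fits, 2 to 4 higher genes and 57 to 64 lower genes. The following means reversed. With HFD in Cy5 alone RPS27A was at 0.43, RPS29 at 0.23, RPS27L at 0.019, RPL12 at 0.32 and RPL31 at 0.23. With HFD in Cy3 alone RPL11 was at 0.28 and RPL38 at -0.11. On the 14 arrays RPS27L was at 0.0056, in animals 1 to 4 RPS27A was at 0.017 and RPL31 at 0.017, and with the mean of all probes RPLP1 was at -0.059 and RPL36A at -0.28. Of 1372 gene values under alternatives 1283 kept direction and call, 50 lost the call, 27 gained it and 12 reversed. The cause was not tested. The difference of opposite-strand pairs lay between -0.56 and -0.20. No paired analysis was possible between the diets because the STD animals entered as 1 pool, while orientations and subunits were compared within animals.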
